A study of Arabidopsis thaliana with 4 samples.

Results

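INDETERMINATE DOMAIN (IDD) genes encode plant transcription factors with a conserved block of zinc fingers. The peaks of SHORT LIFE (SHL), a chromatin protein, were examined here on 10 of these genes in Arabidopsis thaliana seedlings. The genes IDD1, IDD2, IDD4, IDD5, IDD7, IDD11, IDD12, IDD14, IDD15 and IDD16 were found by locus identifier, and a peak was counted when it touched the gene body or the 1 kb on either side. The 10 genes are among 27444 protein-coding genes on the nuclear chromosomes. Together they held 5 of the 3678 peaks listed for replicate 1 and 5 of the 3494 listed for replicate 2. The genes were chosen by the presence of SHL peaks on members of the family, so the counts and scores on them are descriptions and were not tested.

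SHL was mapped by chromatin immunoprecipitation and sequencing (ChIP-seq) with an antibody against the HA epitope. All samples were whole Col-0 seedlings, about 10 days old, raised on plates in long days (light for 16 h, dark for 8 h). The plants were of the ebs shl mutant background and carried HA-tagged SHL under its native promoter, so the ChIP and input groups share genotype and transgene. The design comprised 2 ChIP samples and 2 input samples taken without an antibody, of which only the ChIP samples had a list of peaks. A sample from plants without the tag is not among the samples described. Nothing in the labels says whether the replicates came from separate cultures, so their agreement may be technical.

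SHL reads modified histone tails through a BAH and a PHD domain, and with its relative EBS it is known as a regulator of flowering. IDD proteins bind DNA through their zinc fingers and often act with GRAS proteins, a plant family that includes SHORT-ROOT (SHR), SCARECROW (SCR) and the DELLA repressors of gibberellin signalling. IDD factors are known from root tissue patterning, gravitropism, seed germination, starch metabolism and gibberellin feedback.

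SHL peaks lay on IDD7, IDD12, IDD14 and IDD16 in both replicates. IDD4 had a peak in replicate 1 only and IDD5 in replicate 2 only. IDD1, IDD2, IDD11 and IDD15 had none in either. A peak in both replicates was thus listed on 4 of the 10 genes, beside a background of 8.66% of all protein-coding genes. No peak in either replicate was listed for 4 of the 10, beside 79.5% of all protein-coding genes. A peak in 1 replicate only was listed for 2 of the 10, beside 11.8%. The IDD genes are long, at 2625 to 5407 bp with a median of 2959 bp, against a median of 2078 bp over all protein-coding genes. Among the 8041 protein-coding genes within that range of lengths, 7.25% had a peak in both replicates, 10.1% in 1 replicate only and 82.6% in neither. That range was chosen after the values were seen.

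The peaks of the replicates overlapped each other on the same 4 genes, beside a background of 8.08%. With the flanks left out, 4 of the 10 still had a peak in both replicates, whether overlapping or not, beside 5.86%. Stricter settings lowered the counts. With a reciprocal overlap of 50%, 3 genes had overlapping peaks, beside 7.01%, and IDD16 was lost. With a minimum score of 50, 0 of the 10 had a peak in both replicates, beside 3.74%, and with a minimum of 100, 0 again, beside 2.71%.

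**Figure D1:**
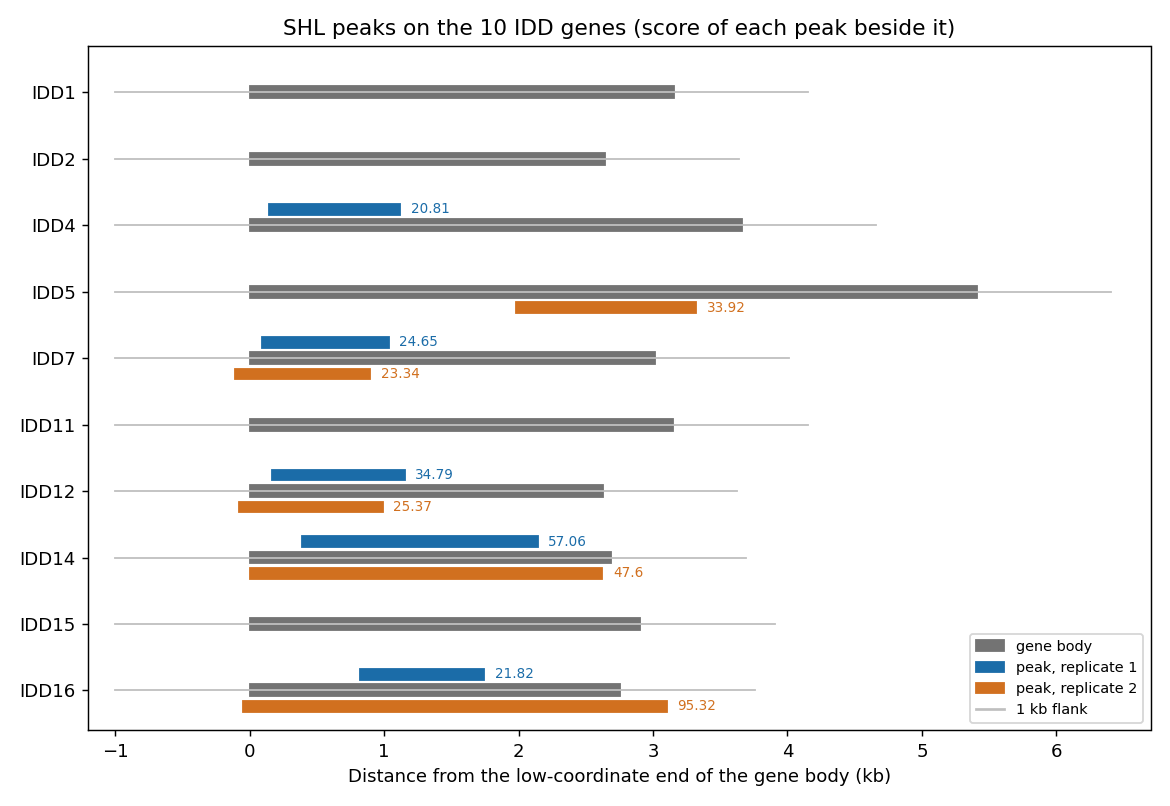
Map of the 10 IDD genes, drawn to scale from the low-coordinate end of each gene body (kb). Grey boxes are gene bodies, thin lines the 1 kb flanks, and blue and orange boxes the peaks of replicates 1 and 2 with their scores. Every peak lies on a body, and those of IDD14 and IDD16 in replicate 2 span nearly the whole gene. Transcription direction is not shown.

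All 10 peaks on the IDD genes overlapped the gene body, and none touched a flank alone. No gene had more than 1 peak in a replicate, and none of the 10 peaks overlapped another protein-coding gene. In replicate 1 all 5 peaks lay entirely within the body, and in replicate 2 this held for 2 of 5. The matching shares over all protein-coding genes were not computed, so these placements cannot be read as particular to the IDD genes. The gene table used gives no strand or exons, so a peak is placed here by the low-coordinate and high-coordinate ends of the body, and not by promoter, exon, intron or untranslated region.

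Peak scores are those of the authors' peak caller and were ranked only within their own list. The percentile given with a score is the share of nuclear peaks in that list that scored lower. The lowest deposited scores were 20.01 in replicate 1 and 20 in replicate 2, and the medians over nuclear peaks were 39.15 and 39.89. On the IDD genes scores ran from 20.81 to 57.06 in replicate 1 and from 23.34 to 95.32 in replicate 2. Of these, 1 of the 5 peaks in replicate 1 and 2 of the 5 in replicate 2 exceeded the nuclear median of their list. Peaks on protein-coding genes had lower medians, 33.48 in replicate 1 and 33.845 in replicate 2. The IDD12 peak of replicate 1 (34.79) and the IDD5 peak of replicate 2 (33.92) were slightly above these. None of the 10 peaks on IDD genes reached 100. Among peaks on protein-coding genes, 463 of 2630 in replicate 1 and 456 of 2508 in replicate 2 scored 100 or over. With 5 peaks per list, the lack of such a score cannot be read as particular to the IDD genes. Read depth is unknown from these lists, so a gene without a peak is one on which no peak was listed, not one shown to lack SHL.

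**Figure D2:**
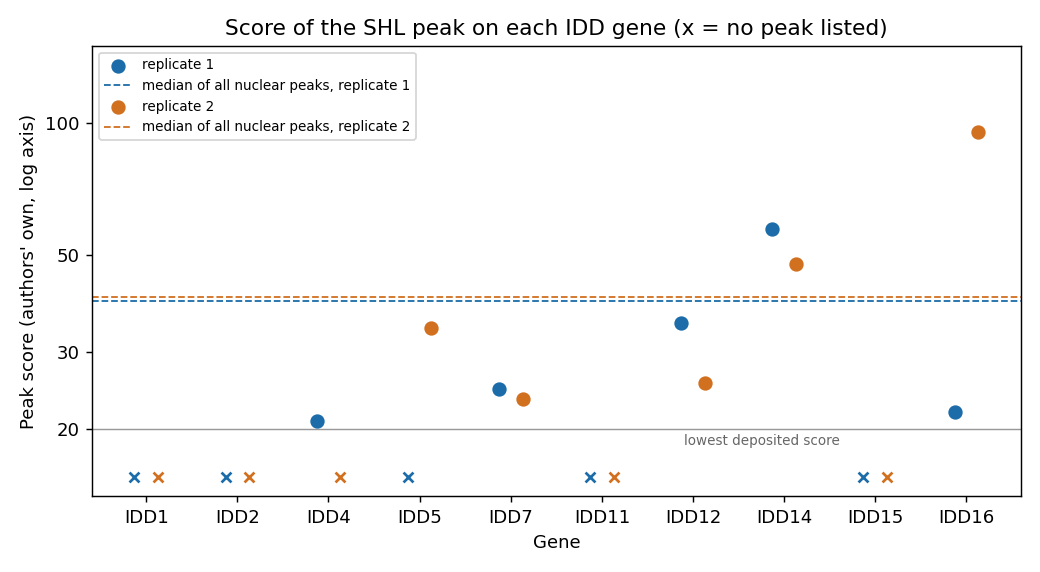
Score of the peak on each IDD gene (y axis, the authors' own score, log scale) in replicate 1 (blue) and replicate 2 (orange). Crosses mark genes with no listed peak and dashed lines the median score of all nuclear peaks of each list. The peaks of IDD14 in both replicates and of IDD16 in replicate 2 stand above the medians, and all others lie below.

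IDD14, IDD15 and IDD16 are close relatives known to act redundantly in lateral organ shape and shoot gravitropism through auxin synthesis and transport. IDD14 (AT1G68130), which also has a splice form linked to starch metabolism in the cold, had a broad peak in both replicates. The peak in replicate 1 lay at chr1:25532395-25534149 (TAIR10) and scored 57.06, the 62.5th percentile. The peak in replicate 2 lay at chr1:25532009-25534629 and scored 47.6, the 56.5th percentile. The first peak was contained in the second, and the second covered 97.4% of the gene body. IDD14 was the only one of the 10 genes whose peak exceeded the median score of its list in both replicates.

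IDD16 (AT1G25250), which is also known to restrain the early stomatal lineage, differed between the replicates. Its peak in replicate 1, at chr1:8849855-8850777, scored 21.82 and was 923 bp wide. In replicate 2 the peak at chr1:8848985-8852136 scored 95.32 and was 3152 bp wide, the highest score and the greatest width among the 10 peaks on IDD genes. The percentiles were 10.1 and 70.7, a gap of 60.5 points, and 0.640% of the 2186 regions common to both replicates had a larger gap. The narrow peak was contained in the wide one and made up 29.3% of it, whereas overlapping peak pairs genome-wide shared a median of 74.5% of the wider peak. The wide peak covered the whole body, extended past both ends by 395 bp in all, and also lay on the annotated long non-coding RNA gene AT1G05943.

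IDD15 (AT2G01940), also named SHOOT GRAVITROPISM 5 for its part in the gravity response of inflorescence stems, had no peak on its body or within 1 kb. The nearest peak of replicate 2 began 1114 bp from the body, just outside the limit, at chr2:436214-437820 with a score of 25.88. That peak lay on no annotated gene. In replicate 1 the nearest peak was 24.8 kb away. No peak on any of the 10 genes fell in the flank alone, so no gene entered the count from just inside the limit. In replicate 2 the genes of this trio thus ranged from broad peaks over nearly the whole body, on IDD14 and IDD16, to none on IDD15. In replicate 1 the peaks covered 65.2% of the IDD14 body and 33.5% of the IDD16 body, and IDD15 again had none.

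IDD7 (AT1G55110) and IDD12 (AT4G02670) carried narrow peaks of nearly the same form. On IDD7 the peak of replicate 1 was at chr1:20560346-20561292 with a score of 24.65, and that of replicate 2 at chr1:20560151-20561152 with a score of 23.34. These scores stood at the 21.8th and 17.0th percentiles. On IDD12 the peak of replicate 1 was at chr4:1176165-1177152 with a score of 34.79, and that of replicate 2 at chr4:1175918-1176988 with a score of 25.37. These stood at the 44.4th and 23.5th percentiles. In both genes the peaks of the replicates sat at the low-coordinate end of the body, and the peak of replicate 2 ran past that end, by 107 bp on IDD7 and by 82 bp on IDD12. The shared stretch was 807 bp on IDD7 and 824 bp on IDD12, which was 80.5% and 76.9% of the wider peak.

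Merging the overlapping peaks of both replicates gave 1 common region on each of these 4 genes, and each had its midpoint in the body. A midpoint in the body was found for 4.58% of all protein-coding genes. The regions were 1142 bp wide on IDD7, 1235 bp on IDD12, 2621 bp on IDD14 and 3152 bp on IDD16. Among 857 common regions in protein-coding bodies whose peaks all scored under 100, the median width was 1596 bp and the middle 50% ran from 1324 to 2029 bp. IDD7 and IDD12 lay below that range and IDD14 and IDD16 above it. The regions covered 34.4% of the IDD7 body, 43.9% of IDD12, 97.4% of IDD14 and 100% of IDD16. On IDD14 and IDD16 the region had the bounds of the replicate 2 peak. The replicate 1 peaks covered 65.2% of the IDD14 body and 33.5% of the IDD16 body. Over the 1257 protein-coding genes with a region midpoint in the body, the median coverage was 86.4%, with quartiles of 58.3% and 100%.

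**Figure D3:**
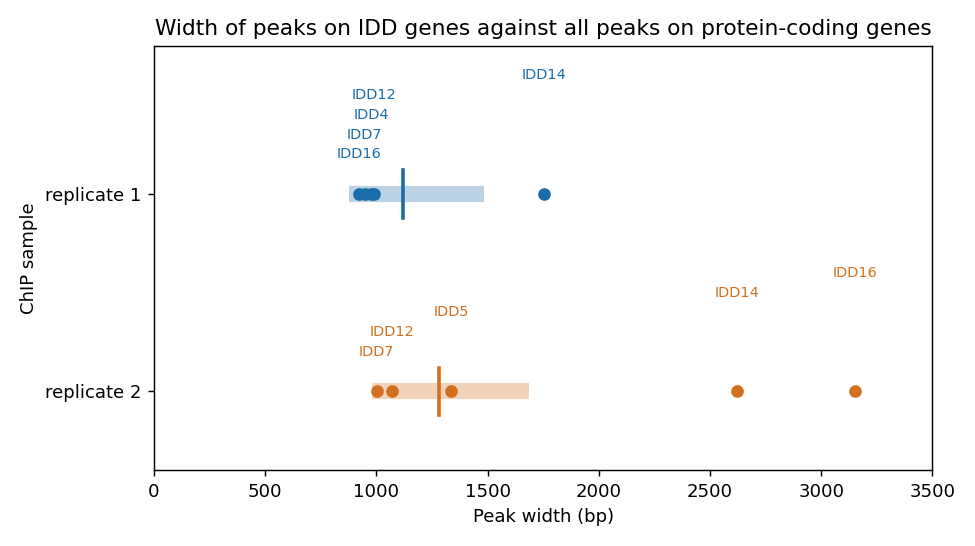
Width (bp) of each peak on an IDD gene, by ChIP sample. Pale bars span the quartiles of all peaks that overlap protein-coding genes and the vertical line is their median. The peak of IDD14 lies beyond the upper quartile in both replicates and that of IDD16 in replicate 2 only, while the peaks of the other genes stay within the quartiles.

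Within single lists IDD14 was broad in both replicates and IDD16 in replicate 2 only. In replicate 1 the peaks on IDD4, IDD7, IDD12 and IDD16 were 977, 947, 988 and 923 bp wide, all below the median of 1121 bp for peaks on protein-coding genes, and the IDD14 peak of 1755 bp was wider than 85.1% of them. In replicate 2 the peaks on IDD7 and IDD12 were 1002 and 1071 bp wide, below the median of 1282 bp. The IDD5 peak of 1336 bp was near that median. The peaks of IDD14 and IDD16 in replicate 2 were wider than 94.5% and 97.7% of the peaks on protein-coding genes.

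IDD4 (AT2G02080), known from immune signalling downstream of a MAP kinase, and IDD5 (AT2G02070, RAVEN), known from starch granule formation and root patterning, are neighbours on chromosome 2. No annotated gene and no peak lay in the 7.30 kb between them. The IDD4 peak of replicate 1 was at chr2:518223-519199 and scored 20.81, the 4.80th percentile, with only 176 nuclear peaks of that list below it. The IDD5 peak of replicate 2 was at chr2:507359-508694 and scored 33.92, the 42.8th percentile. Each gene was the nearest peak-bearing place for the other in the list where it lacked a peak itself, so the pair had 1 peak per replicate, on different genes. IDD15 lay 70.3 kb from IDD5 on the same chromosome, with 15 protein-coding genes between.

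**Figure D4:**
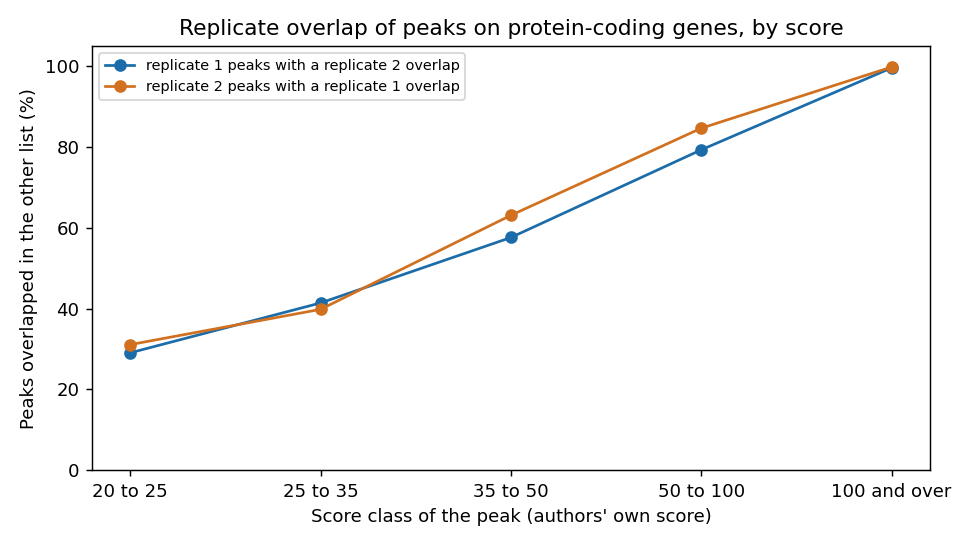
Share of peaks on protein-coding genes that a peak of the other replicate overlapped (y axis, %), by score class of the peak (x axis), for replicate 1 (blue) and replicate 2 (orange). The share rises with each class, from 29.1% and 31.1% for scores of 20 to 25 to 99.6% and 99.8% for scores of 100 and over.

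Low-scoring peaks on protein-coding genes were often listed in 1 replicate alone. Of 702 peaks on protein-coding genes that scored 20 to 25 in replicate 1, 29.1% were overlapped by a peak of replicate 2, the class of the peaks on IDD4, IDD7 and IDD16. For scores of 25 to 35 in replicate 1, the class of IDD12, the share was 41.4%. In replicate 2, 39.8% of 653 peaks scoring 25 to 35, the class of IDD5 and IDD12, were overlapped by a peak of replicate 1. The replicate 2 share was 31.1% for scores of 20 to 25, the class of IDD7, and 63.1% for 35 to 50, the class of IDD14. For scores of 50 to 100 the shares were 79.3% in replicate 1, the class of IDD14, and 84.6% in replicate 2, the class of IDD16. Over all protein-coding genes, 58.7% of those with a peak in replicate 1 (background 14.8%) and 60.1% of those with a peak in replicate 2 (background 14.4%) had one in both. For the IDD genes this was 4 of 5 in each list.

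IDD1, IDD2 and IDD11 had no listed peak within 1 kb. IDD1 (AT5G66730, ENHYDROUS) promotes the passage from seed maturation to germination. Its nearest peaks, 6.36 kb away in replicate 1 and 6.49 kb away in replicate 2, both lay on the homeobox gene HB53, with scores of 21.42 and 32.68. IDD2 (AT3G50700, GAF1) works with DELLA proteins in gibberellin feedback, and its nearest peaks were 3.44 kb and 4.53 kb away, with scores of 23.2 and 56.38. They lay on different neighbours, AT3G50710 in replicate 1 and AT3G50720 in replicate 2. The nearest peaks to IDD11 (AT3G13810) were 8.92 kb and 28.4 kb away.

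The remaining 6 genes of the IDD family, several of which carry bird names and pattern the root ground tissue, were compared by the same count. A peak in both replicates was listed on 3 of the 6, beside 8.66% of all protein-coding genes. These were MAGPIE (MGP), JACKDAW (JKD) and IDD13. On MGP (AT1G03840), which acts with SHR and SCR in the root, the peaks overlapped and scored 40.49 and 57.96. JKD (AT5G03150), which restricts SHR movement, had a peak of 43.35 in replicate 1 and of 44.01 in replicate 2. The JKD peaks lay next to each other, at chr5:744931-747270 and chr5:747440-748919, but did not overlap. The peaks counted for IDD13 (AT5G60470), with scores of 55.3 and 32.33, lay on its neighbour HB26, and covered 0.949% of the IDD13 body in replicate 1 and none of it in replicate 2. NUTCRACKER (NUC) and BLUEJAY (BLJ) had a peak in replicate 2 only, and BALDIBIS (BIB) in neither. Across the whole family of 16 genes, 7 had a peak in both replicates (background 8.66%), with JKD and IDD13 among them. The midpoint of a common region lay in the body of 5 (background 4.58%).

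**Figure D5:**
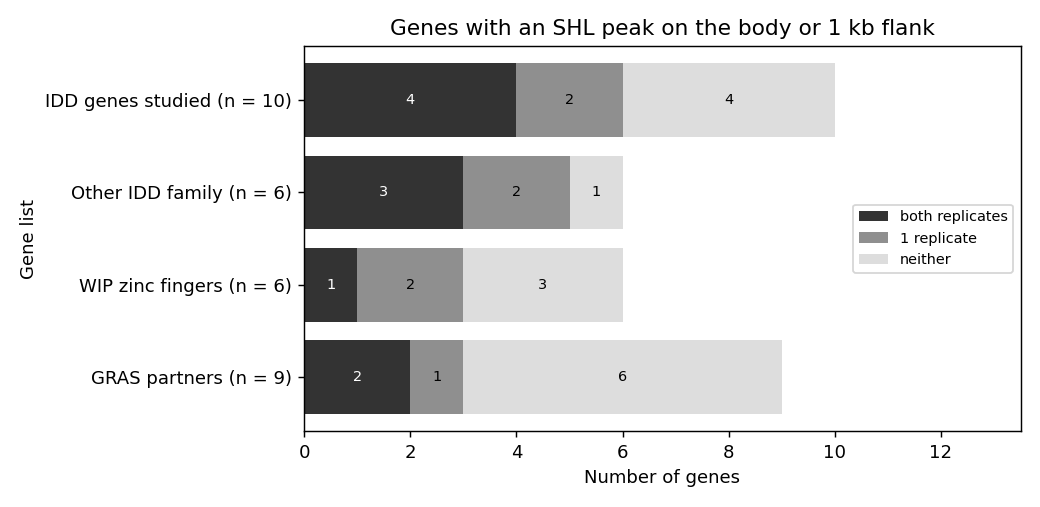
Number of genes with a peak on the body or 1 kb flank in both replicates (dark), in 1 replicate (mid grey) or in neither (light), for the 10 IDD genes and 3 related lists. A peak in both replicates was listed on 4 of the 10 IDD genes and 3 of 6 other family genes, and on 1 or 2 genes of each further list.

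The partners and described targets of IDD factors were examined in the same way, beside the same background of 8.66% for a peak in both replicates. Of all protein-coding genes, 79.5% had no peak in either replicate and 11.8% had one in 1 replicate only. Of 9 GRAS partner genes, 2 had a peak in both replicates, SHR (AT4G37650), a mobile regulator of root radial pattern, and RGL3 (AT5G17490), a DELLA gene. SHR scored 57.04 and 29.21, and RGL3 scored 119.27 and 130.66, above every peak on the 10 IDD genes in the same list. SCR, RGA, RGL1, RGL2, SCL3 and SCL23 had none, and the peak counted for GAI in replicate 2 did not touch its body. Genes described as IDD targets are given without a count, since the list is reported only in part. The auxin synthesis gene YUC5 had a peak in replicate 2 only and TAA1 in replicate 1 only. The gibberellin genes GA20OX2, GA3OX1 and GID1B had none, nor did CYCD6;1, SUS4 and QQS. Of the 6 WIP genes, another zinc finger family, 1 had a peak in both replicates (background 8.66%), WIP2 (AT3G57670), with scores of 109.39 and 36.35. No difference between these lists was tested.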

How the data were processed

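The build was TAIR10 and the tools named are MACS 1.4, Bowtie2 2.2.8 and SAMtools 1.3, per the submitters' processing notes. The authors deposited 1 peak list per ChIP sample, with a score for each peak. MACS 1.4 by convention writes there 10 times the negative of a log10 p-value, though the lists carry no header to say so. Settings, filters and the control are not given in the sources used here. Scores were compared within a list only.

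Peaks on the 5 nuclear chromosomes were kept (3668 in replicate 1 and 3487 in replicate 2), and coordinates are 1-based. Gene bodies came from the RefSeq table of TAIR10.1. The fit of its positions to TAIR10 was checked by shifting: 57.0% of common-region midpoints lay in protein-coding bodies, against 29.0% after -1500 bp and 29.8% after 1500 bp. The locus identifiers of all 39 genes listed were in the table, and 32 had the same symbol there. Peaks overlapping by at least 1 bp were merged into common regions. Percentages over all genes serve as background, and no test was run. The overlap scripts were tested on simulated data. Python 3.11.15 and pandas 2.3.3 were used.

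The genes and lists were chosen with earlier results of these data known. All 10 IDD genes are named, and genes of the other lists are given values where both replicates had a peak. A further gene of the target list is not reported here. The remaining list genes, and the nearest peaks, were named after their values were seen. Alternatives were minimum scores of 50 and 100, a reciprocal overlap of 50%, flanks of 0, 500 bp and 2 kb, and each replicate alone.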

Additional observations from a re-analysis of the deposited data

How the results depend on the processing

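Score was the setting on which the counts depended most, and other settings changed them less. With peaks scoring at least 50, 0 of the 10 IDD genes had a peak in both replicates (background 3.74%), 0 had overlapping peaks, 0 had a region midpoint in the body and 8 had no peak in either list. The median peak width became 1755 bp in replicate 1 (IDD14 alone) and 3152 bp in replicate 2 (IDD16 alone). With peaks scoring at least 100 these counts were 0 (background 2.71%), 0, 0 and 10. Shares over all protein-coding genes were not computed for the overlap, midpoint and no-peak counts at these scores. Without these shares, those counts cannot be read as particular to the IDD genes or as ordinary. A reciprocal overlap of 50% left 3 genes with overlapping peaks (background 7.01%), losing IDD16. Flanks of 0 and 500 bp changed no count, and a flank of 2 kb left 3 genes without a peak, since IDD15 gained one in replicate 2. The share of all protein-coding genes without a peak was not computed at 2 kb, where any gene more easily meets a peak. In either replicate alone 5 genes had a peak (background 14.8% in replicate 1 and 14.4% in replicate 2), and the remaining 5 had none. A midpoint in the body was found for the same 5 genes that had a peak, but its share over all protein-coding genes was not computed. Overlap between replicates has no meaning in a single list, so that count equals the count of genes with a peak. No paired analysis was possible because the input samples have no list here and no test was run. Read depth is unknown, so weak binding below the deposited minimum score cannot be seen.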
